A study of Mus musculus with 6 samples.

Results

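Genes of Wnt signalling, namely the ligands, their receptors, the secreted antagonists, the R-spondin axis and a few nuclear and feedback genes, were examined in the healing bone of mice without Cyp24a1, the enzyme that inactivates vitamin D hormone. The genes were taken by name: Wnt, Fzd, Sfrp or Dkk followed by a number, and a fixed set of further symbols from Frzb and Sost to Axin2 and Znrf3. These names matched 54 of the 18193 genes with a probe set of their own (108 of 45037 probe sets), and each gene was read from its probe set with the highest mean over all arrays. Tcf7, which the rule also names, is not analysed here. Callus is the repair tissue that bridges a break. It was collected 14 days after the tibia of 12 week old mice was cut and fixed with a rod inside the bone, on a mixed C57BL6J x 129SV background. The null group, Cyp24a1 (-/-), and the group of heterozygous littermates, Cyp24a1 (+/-), held 3 arrays each. The heterozygous animals still carry a disrupted allele and no wild-type group was analysed. The labels do not say whether an array holds RNA of a single mouse, so the p-values below measure the spread between these samples.

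Wnt proteins are lipid-modified secreted ligands that bind Frizzled receptors together with the co-receptors Lrp5 and Lrp6. In the canonical branch this spares beta-catenin from degradation, and beta-catenin then acts in the nucleus with factors of the TCF/LEF family. Sclerostin, the Dickkopf proteins, the secreted Frizzled-related proteins and Wif1 block the ligand or the co-receptor, whereas R-spondins acting through the Lgr receptors protect Frizzleds from removal by Znrf3. In bone the pathway drives osteoblast formation, and its antagonists are made largely by osteocytes and mesenchymal cells.

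The TCF/LEF heptamers CTTTGAT and CTTTGAA were searched on both strands of the 250 bases before each gene start in RefSeq (build GRCm38.p6), since these factors are the nuclear end of the pathway. Windows were listed for 35 of the 54 genes, and 3 of these genes (8.57%) held a heptamer, against 8.63% of all 27025 genes with a window. The 3 were Wnt5b, Wnt11 and Dkk1. Their matches are printed with 27 bases on either side, 5′ to 3′ on the strand of the gene, with the heptamer or its reverse complement in capitals: Wnt5b at chr6:119449424-119449484 (minus strand), Dkk1 at chr19:30549580-30549640 (minus strand) and Wnt11 at chr7:98835034-98835094 (plus strand). A match describes the letters and shows no binding.
Wnt5b: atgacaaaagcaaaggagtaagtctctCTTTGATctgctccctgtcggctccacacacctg
Dkk1: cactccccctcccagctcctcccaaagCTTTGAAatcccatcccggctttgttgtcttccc
Wnt11: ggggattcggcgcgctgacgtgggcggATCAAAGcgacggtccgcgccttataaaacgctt

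Axin2 is a widely used reporter of beta-catenin activity, and Frzb and Fzd5 are a secreted antagonist and a receptor whose groups did not overlap below. Their windows are shown whole and in lower case, since neither heptamer occurs in these letters: Axin2 at chr11:108920099-108920348 (plus strand, 24 CG pairs), Frzb at chr2:80447397-80447646 (minus strand, 16 CG pairs) and Fzd5 at chr1:64737751-64738000 (minus strand, 32 CG pairs).
Axin2: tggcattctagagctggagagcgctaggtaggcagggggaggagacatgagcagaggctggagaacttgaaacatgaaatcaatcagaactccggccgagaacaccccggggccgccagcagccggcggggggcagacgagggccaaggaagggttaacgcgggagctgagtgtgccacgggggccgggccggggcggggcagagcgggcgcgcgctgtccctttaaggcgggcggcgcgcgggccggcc
Frzb: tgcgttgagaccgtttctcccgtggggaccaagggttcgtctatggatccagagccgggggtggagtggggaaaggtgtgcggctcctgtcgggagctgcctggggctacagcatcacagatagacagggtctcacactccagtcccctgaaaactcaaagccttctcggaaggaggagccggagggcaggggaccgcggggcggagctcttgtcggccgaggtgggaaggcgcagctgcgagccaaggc
Fzd5: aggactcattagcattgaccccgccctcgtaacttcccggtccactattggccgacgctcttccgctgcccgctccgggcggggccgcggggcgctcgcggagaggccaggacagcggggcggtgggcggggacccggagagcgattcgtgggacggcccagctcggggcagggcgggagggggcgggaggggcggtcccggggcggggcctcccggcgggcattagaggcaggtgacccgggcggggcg

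Each value is a log2 probe set signal, so a difference of 1 is a doubling, and the level of one probe set is not set against that of another. Array medians lay between 4.55 and 4.59. By probe sets for Xist and for Y-linked genes, 2 of the 6 arrays had the Xist pattern and 0 had both. The arrays thus appear to differ in sex, and its part in the group differences was not tested. How these 2 arrays fall between the groups is not given here, so the balance of sex cannot be judged. On arrays that lack the transcript these probe sets read 1.77 to 3.52, and the upper end served as a guide to background. The 6 measured osteoblast markers, among them Col1a1 and Ibsp, lay above this guide on every array. Of these, Ibsp differed by -0.56 (SE 0.16, unadjusted p = 0.011 by limma) and Alpl by -0.32 (SE 0.10, unadjusted p = 0.019 by limma), null minus heterozygous, and the score of the list ranged from -0.19 to -0.05 on null and from -0.09 to 0.29 on heterozygous arrays. Of the 9 chondrocyte markers, Matn1 lay under it on all arrays and Col9a2 on some. All 7 skeletal muscle markers were above it, with Acta1 at 14.39 to 14.49, among the highest values of the table. The marrow score, the mean of 12 neutrophil and erythroid genes relative to their own means, was -3.10 on null replicate 1 and -3.30 on heterozygous replicate 3, against 1.35 to 1.92 on the other 4 arrays. These 2 arrays, called marrow-poor below, stood apart from the rest, and each group held 1 of them. In such bulk tissue, fewer cells of a type and less RNA per cell cannot be told apart. One Cyp24a1 probe set read 3.20 to 3.65 on null and 2.71 to 3.10 on heterozygous arrays, and the other 3.12 to 3.46 and 3.17 to 3.69. Both lie close to background, and their place relative to the disrupted part is unknown here, so they do not check the genotype.

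Within this tissue 38 of the 54 Wnt genes were above the background guide on every array, 8 were at or under it on all 6 arrays, and the remaining 8 crossed it. The genes under it throughout were Wnt1, Wnt2, Wnt2b, Wnt3, Wnt8a, Wnt8b, Dkk4 and Rspo1, for which no fold is given.

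The comparison asked whether any Wnt gene differed between null and heterozygous callus. None of the 54 passed limma's test after Benjamini-Hochberg adjustment across the whole table (lowest adjusted p = 0.999), and neither did any gene on the array (0% of 18193). At an unadjusted p under 0.05 there were 4 Wnt genes (7.41%), against 4.49% of all genes. Fzd5 and Fzd6 were the 2 with higher null values, where 2.06% of all genes stood, and Wnt5b and Frzb the 2 with lower ones, where 2.43% stood. Taking only whether the 3 null values lay apart from the 3 heterozygous values, 6 Wnt genes (11.1%) qualified against 10.1% of all genes. They were Fzd5 and Fzd6 on the higher side (background 4.14%) and Frzb, Znrf3, Wnt9a and Lgr6 on the lower side (background 5.99%). By sign alone 28 Wnt genes (51.9%) were higher in null callus, against 49.7% of all genes, and the median difference was 0.0023 against -0.0017. The shares without overlap and by sign are close to those of the whole array, and the 4 genes at an unadjusted p under 0.05 are a small number to set against its share. With each of the 6 arrays left out in turn, an unadjusted p under 0.05 by limma was reached in 3 of the 6 fits for Frzb, 2 for Wnt5b, 2 for Fzd5 and 1 for Fzd6. The plot of differences by role shows the spread.

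**Figure D1:**
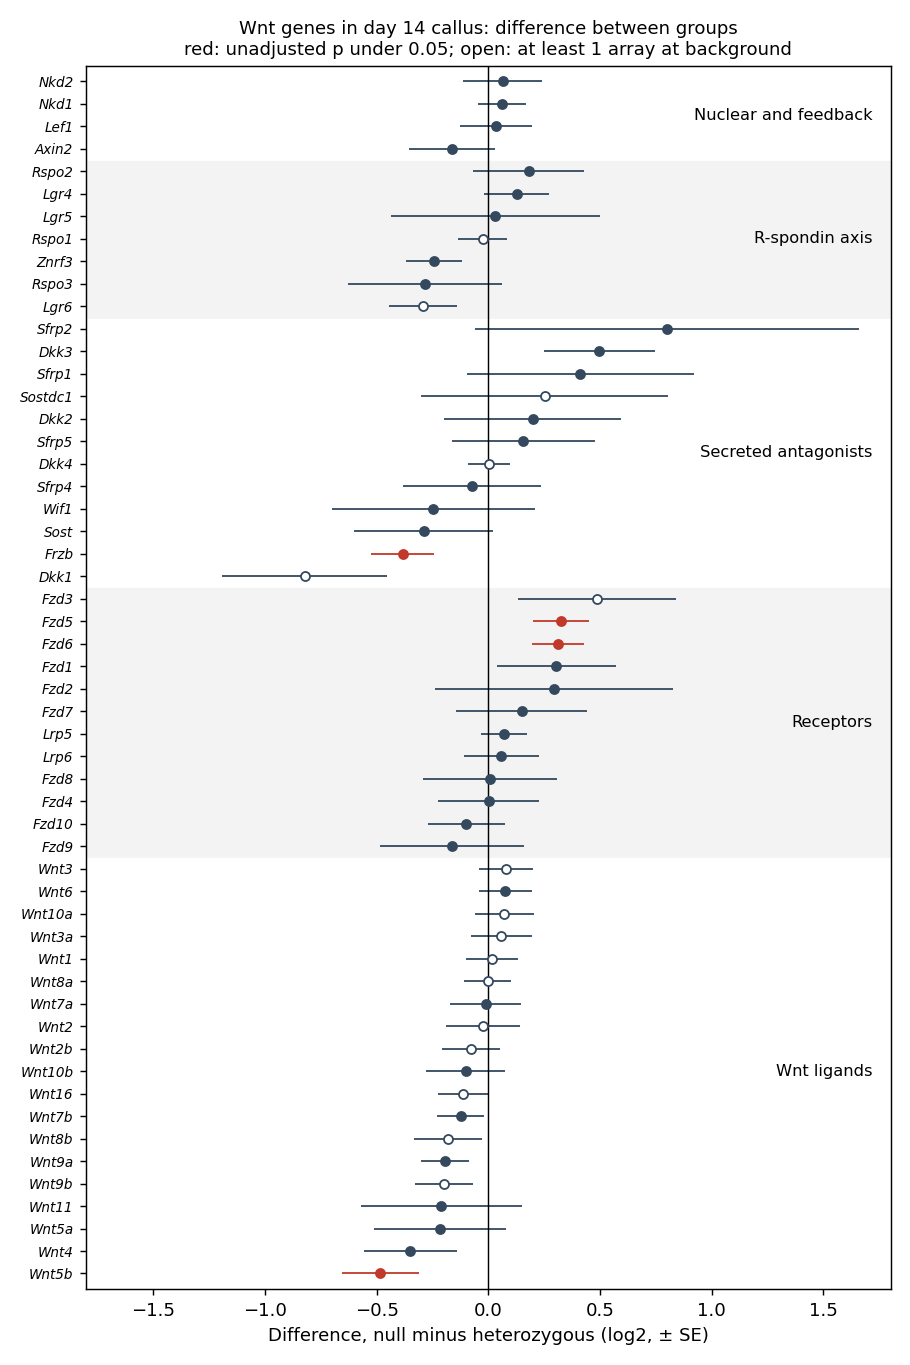
Null minus heterozygous difference (log2, horizontal axis) of the 54 Wnt genes, grouped by role, with the SE of limma's fit (n = 3 arrays per group). Red marks the 4 genes with an unadjusted p under 0.05, open circles the genes with at least 1 array at or under background, and most bars cross or adjoin the zero line.

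Of the 19 Wnt ligands, 14 had lower and 5 had higher values in null callus, with differences from -0.48 to 0.08, a median of -0.10 and 1 gene at an unadjusted p under 0.05. Of these ligands 10 had at least 1 array at or under background, and 6 had all of them there. The lower side kept the majority under both other scalings and whichever array was left out (11 to 15 of 19). Wnt5b, a ligand of the beta-catenin independent branch made in cartilage, read 4.61, 4.94 and 4.76 on the null arrays and 5.33, 5.49 and 4.94 on the heterozygous arrays. The groups met at 4.94, on null replicate 2 and heterozygous replicate 3. The difference was -0.48 (SE 0.17, 95% interval -0.90 to -0.07; unadjusted p = 0.029, adjusted p = 0.999 by limma). Its second probe set, with most arrays at background, gave -0.04.

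Wnt9a, a ligand expressed in developing joints, read 7.51, 7.70 and 7.74 against 7.81, 7.88 and 7.85. All null arrays were lower, by a mean of 0.19 on the log2 scale (difference -0.19, SE 0.11; unadjusted p = 0.11, adjusted p = 0.999 by limma). An exact permutation test (two-sided) gave p = 0.1, the smallest that 3 against 3 arrays can give. Any gene without overlap gets this value, so it adds nothing to the lack of overlap. Without null replicate 1 the Wnt9a difference was -0.12. Wnt4 read 6.84, 6.58 and 7.06 against 7.17, 7.51 and 6.84, with overlap and a difference of -0.35 (SE 0.21). Both probe sets of Wnt4 had this sign, and the difference was -0.18 without heterozygous replicate 2 and -0.23 without null replicate 2. Wnt9b, at 3.62, 3.53 and 3.34 against 3.87, 3.60 and 3.60, stayed near background (difference -0.20, SE 0.13, and -0.11 without heterozygous replicate 1). Wnt10b, a ligand that favours osteoblasts over fat cells, read 3.99, 4.06 and 4.28 against 4.56, 4.06 and 4.01. Its groups overlapped (difference -0.10, 95% interval -0.52 to 0.32). The ligands with the widest spread over arrays were Wnt11 and Wnt5a. Wnt11, which acts mainly through the beta-catenin independent branch, ran 7.28, 6.14 and 6.78 on null and 6.91, 6.45 and 7.47 on heterozygous arrays. Its highest values were on the marrow-poor arrays of each group, and so were those of Wnt5a (5.38, 4.59 and 4.31 against 4.65, 5.11 and 5.16). Their differences were -0.21 (SE 0.36) and -0.22 (SE 0.30).

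**Figure D2:**
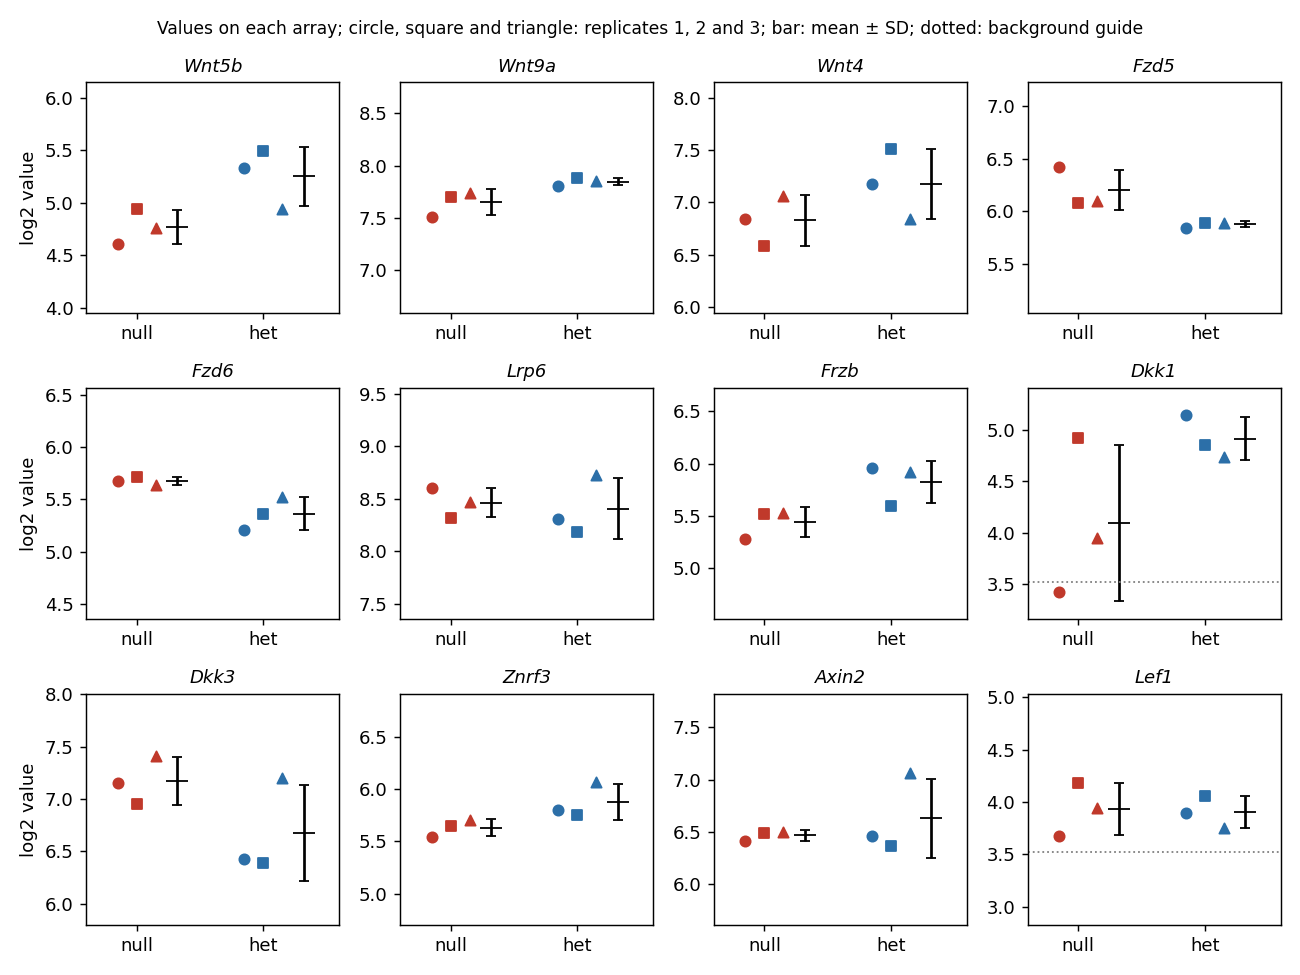
Log2 value (vertical axis) of 12 Wnt genes on each null (red) and heterozygous (blue) array, with circles, squares and triangles for replicates 1, 2 and 3, a black bar for mean ± SD (n = 3) and a dotted line at the background guide of 3.52. Fzd5, Fzd6, Frzb, Wnt9a and Znrf3 show no overlap between groups, and Axin2 has a single high array at 7.06.

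Of the 12 receptor genes, Frizzleds and Lrp co-receptors, 10 had higher values in null callus (range of all 12 -0.16 to 0.49, median 0.11), 2 of them at an unadjusted p under 0.05. The count was 9 and 8 under the other scalings and 7 to 10 with an array left out, lowest without null replicate 1. Markers of other cell types also had higher null values. The score of 8 skin markers was 1.37, 0.63 and -0.07 on null arrays against -1.70, 0.46 and -0.69, with Krtdap at a difference of 1.81 (SE 0.63, unadjusted p = 0.025 by limma). The score of 6 macrophage markers was 0.94, -0.33 and 0.36 against -0.32, -0.68 and 0.04, with Mrc1 at 0.86 (SE 0.30) and Cd163 at 1.19 (SE 0.43). Both scores overlapped between groups, all 6 macrophage markers were above background on every array, and the part of these cells in the receptor values was not tested. Fzd6, a Frizzled linked to planar cell polarity, read 5.67, 5.71 and 5.64 on null and 5.21, 5.36 and 5.52 on heterozygous arrays. Every null value was higher, and the null arrays were tightly spaced. The null mean was 5.67 ± 0.04 (SD, n = 3), the heterozygous mean 5.36 ± 0.15 (SD, n = 3) and the difference 0.31 (SE 0.11; unadjusted p = 0.032, adjusted p = 0.999 by limma). Of its 3 probe sets, 2 had this sign, and both probe sets not used lay close to background.

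Fzd5, a receptor for canonical ligands, read 6.42, 6.08 and 6.10 against 5.84, 5.89 and 5.89. The groups were apart, with null replicate 1 highest. The difference was 0.33 (SE 0.13; unadjusted p = 0.037, adjusted p = 0.999 by limma), or 0.22 without null replicate 1, and its second probe set, near background, gave -0.08. Fzd3 ran 4.46, 4.07 and 4.0 against 3.59, 3.03 and 4.45, so that heterozygous replicate 3 lay among the null values and heterozygous replicate 2 was under the background guide. Its difference was 0.49 (SE 0.35), 0.87 without that array and 0.16 without heterozygous replicate 2, and 3 of its 6 probe sets had this sign. Fzd1, at 8.90, 8.37 and 8.62 against 8.27, 7.87 and 8.84, also overlapped (difference 0.31, SE 0.27), and its difference was 0.076 without heterozygous replicate 2 and 0.56 without heterozygous replicate 3. The co-receptor Lrp5 hardly varied, at 5.48, 5.33 and 5.4 against 5.25, 5.41 and 5.34, and its difference of 0.07 had a 95% interval of -0.18 to 0.32. Lrp6 read 8.60, 8.32 and 8.47 against 8.31, 8.18 and 8.73, a difference of 0.06 (95% interval -0.35 to 0.47). The intervals bound how far either co-receptor differed, and smaller differences could not be resolved with 3 arrays a group.

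The 12 secreted antagonists were split, 7 higher and 5 lower in null callus, and held the largest differences of the 54 genes in both directions. Their median of 0.08 turned to -0.09 without null replicate 2 and to -0.08 without null replicate 3, and the split was 6 to 6 with arrays centred on their medians. Frzb, a secreted Frizzled-related protein of cartilage, read 5.28, 5.52 and 5.53 on null arrays against 5.96, 5.60 and 5.92. The groups did not overlap, though null replicates 2 and 3 came within 0.1 of heterozygous replicate 2. The null mean was 5.45 ± 0.14 (SD, n = 3) against 5.83 ± 0.20 (SD, n = 3), which makes a difference of -0.38 (SE 0.14; unadjusted p = 0.032, adjusted p = 0.999 by limma). The other probe set had the same sign (-0.36, SE 0.23), but its groups overlapped and part of its values lay under the background guide. It read 3.39, 3.39 and 3.73 against 4.15, 3.38 and 4.04. The score of the 9 chondrocyte markers ranged from -0.57 to 0.20 on null and from -0.14 to 0.26 on heterozygous arrays, and its part in the Frzb values was not tested.

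Dkk1, which blocks Lrp5 and Lrp6, read 3.42, 4.92 and 3.95 against 5.15, 4.86 and 4.74. Null replicate 1 was at background and null replicate 3 was also low, while null replicate 2 lay among the heterozygous values. The difference was -0.82 (SE 0.37; unadjusted p = 0.064, adjusted p = 0.999 by limma), -0.48 with null replicate 1 left out and -1.24 with null replicate 2 left out. Sost, the osteocyte antagonist sclerostin, read 4.80, 5.96 and 5.02 against 5.44, 5.82 and 5.38. Its low arrays, null replicates 1 and 3, were those with the lowest score of 5 osteocyte markers, a list without Sost (-0.45 and -0.27, against 0.38 on null replicate 2 and 0.08 to 0.15 on the heterozygous arrays). Among these markers Fgf23 lay under the background guide on every array, and Pdpn ran the other way, highest on null replicate 1 (9.6). The low scores thus rest on Dmp1, Phex and Mepe, each lowest on null replicates 1 and 3. The part of the osteocyte score in the Sost values was not tested. The Sost difference was -0.29 (SE 0.31), -0.06 when null replicate 1 was left out and -0.64 when null replicate 2 was, and its other probe set, mostly at background, gave 0.23.

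Dkk3, a Dickkopf relative that does not bind Lrp5 or Lrp6 in the usual way, read 7.15, 6.95 and 7.41 against 6.43, 6.39 and 7.20. Heterozygous replicate 3 was the one array of its group at null levels. The difference was 0.50 (SE 0.25; unadjusted p = 0.089, adjusted p = 0.999 by limma) and 0.76 without that array. The second Dkk3 probe set, also above background, gave 0.23 (SE 0.21) with overlap. The fibroblast marker score was also highest on heterozygous replicate 3 (0.25) among that group, with -0.13 and -0.38 on the others. On the null arrays the score was 0.24, -0.15 and 0.16, and its part in the Dkk3 values was not tested. Wif1, which binds Wnt ligands directly, read 3.91, 5.78 and 5.25 against 5.14, 5.09 and 5.45. Null replicate 1 alone stood low, and the difference of -0.25 (SE 0.45) became 0.29 without it. Sfrp4 ran 7.44, 8.06 and 8.25 against 8.54, 7.84 and 7.59, with overlap (difference -0.07, 95% interval -0.81 to 0.67).

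Sfrp2, a Frizzled-related protein of mesenchymal cells, had the widest spread of all Wnt genes, at 10.90, 7.76 and 8.64 on null arrays against 8.09, 7.46 and 9.36. The marrow-poor array was the highest of each group. The difference of 0.80 (SE 0.86) was -0.10 without null replicate 1 alone and 0.43 without both marrow-poor arrays. Sostdc1, an antagonist also known as ectodin, ran 3.00, 5.20 and 4.51 against 4.36, 4.07 and 3.53, lowest on the marrow-poor arrays, with a difference of 0.25 (SE 0.55).

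Of the 7 genes of the R-spondin axis, 3 were higher and 4 lower in null callus (4 and 3 after quantile normalisation), with differences from -0.29 to 0.18, and 0 had an unadjusted p under 0.05. Znrf3, the membrane ubiquitin ligase that removes Frizzleds and is itself induced by Wnt, read 5.54, 5.65 and 5.70 against 5.80, 5.75 and 6.07. All null arrays were lower, with null replicate 3 within 0.1 of heterozygous replicate 2. The difference was -0.24 (SE 0.12; unadjusted p = 0.095), with both probe sets of the same sign, and -0.14 without heterozygous replicate 3. Lgr6, a receptor for R-spondins, read 3.10, 3.62 and 3.49 against 3.72, 3.71 and 3.65. The groups were apart, but 2 of the 3 null values were at background, which limits the difference of -0.29 (SE 0.15). Without null replicate 1 it was -0.14. Lgr4 read 7.31, 7.61 and 7.70 against 7.44, 7.55 and 7.25 (difference 0.13, SE 0.14), and Rspo3 read 5.18, 3.87 and 4.16 against 4.97, 4.53 and 4.55 (difference -0.28, SE 0.34). Both overlapped, and for each only 1 of 2 probe sets had the sign given. The Rspo3 difference was -0.014 without null replicate 2, -0.67 without null replicate 1 and -0.74 without both marrow-poor arrays, and that of Lgr4 0.24 without null replicate 1 and 0.048 without heterozygous replicate 3. Lgr5, a receptor and a Wnt target in stem cells, ran 5.63, 4.43 and 4.28 against 4.11, 4.66 and 5.48. It was highest on the marrow-poor array of each group, and the group difference was 0.03 (95% interval -1.09 to 1.16).

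The 4 nuclear and feedback genes, Axin2, Lef1, Nkd1 and Nkd2, are induced by beta-catenin in many tissues and are often read as its output. Axin2, whose promoter is printed above, read 6.41, 6.49 and 6.50 on null arrays against 6.46, 6.37 and 7.06. Heterozygous replicate 3 stood above the other arrays, which ran from 6.37 to 6.50. The difference was -0.16 (SE 0.19, 95% interval -0.63 to 0.30) and 0.05 without that array. Its second probe set also read highest there (4.02, against 3.04 to 3.28 elsewhere). Lef1, the TCF/LEF factor of osteoblast and lymphoid precursors, read 3.68, 4.18 and 3.94 against 3.90, 4.06 and 3.75, a difference of 0.03 (95% interval -0.35 to 0.42). Its second probe set, under the background guide on every array, gave -0.04. The Dishevelled inhibitors Nkd1 (3.69, 3.73 and 3.89 against 3.61, 3.76 and 3.75) and Nkd2 (5.60, 5.66 and 5.90 against 5.4, 5.99 and 5.57) differed by 0.06 each, with SEs of 0.11 and 0.18. The other Nkd1 probe sets gave 0.34, -0.21 (groups apart) and -0.04, and the one used lay close to background. All 4 probe sets of Nkd2 had the sign given. None of these 4 genes had an unadjusted p under 0.05. All 4 of the 95% intervals, each for the probe set used, lay between -0.63 and 0.49.

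The Wnt genes also varied between arrays of one genotype. On both marrow-poor arrays 12 Wnt genes (22.2%) read higher than on all 4 others, against 16.4% of all genes, and 10 (18.5%) read lower, against 16.5%. The higher set held Sfrp1, Sfrp2, the Frizzleds Fzd1, Fzd2, Fzd3, Fzd8 and Fzd10, Lrp6, Lgr5, Wnt5a, Wnt11 and Dkk4. The lower set held Fzd7, Fzd9, Sfrp4, Sfrp5, Sostdc1, Lgr4, Lef1, Wnt2, Wnt7a and Wnt10b. Dkk4 and Wnt2 were at background. These arrays were picked by their marrow transcripts and not by genotype, so the values are a description with no test.

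Fzd2, a Frizzled of mesenchymal cells, gave one of the clearest cases, at 8.48 and 7.92 on the marrow-poor arrays and 6.57 to 6.97 on the others. Sfrp1 gave 9.07 and 8.04 against 7.13 to 7.48. In the opposite direction Fzd9 gave 5.71 and 5.44 against 6.04 to 6.67. Sfrp1 and Fzd9 were picked as examples after their values were seen. For Fzd2 the array-to-array range of 1.91 compared with a group difference of 0.30 (SE 0.53), which turned to -0.23 without null replicate 1.

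**Figure D3:**
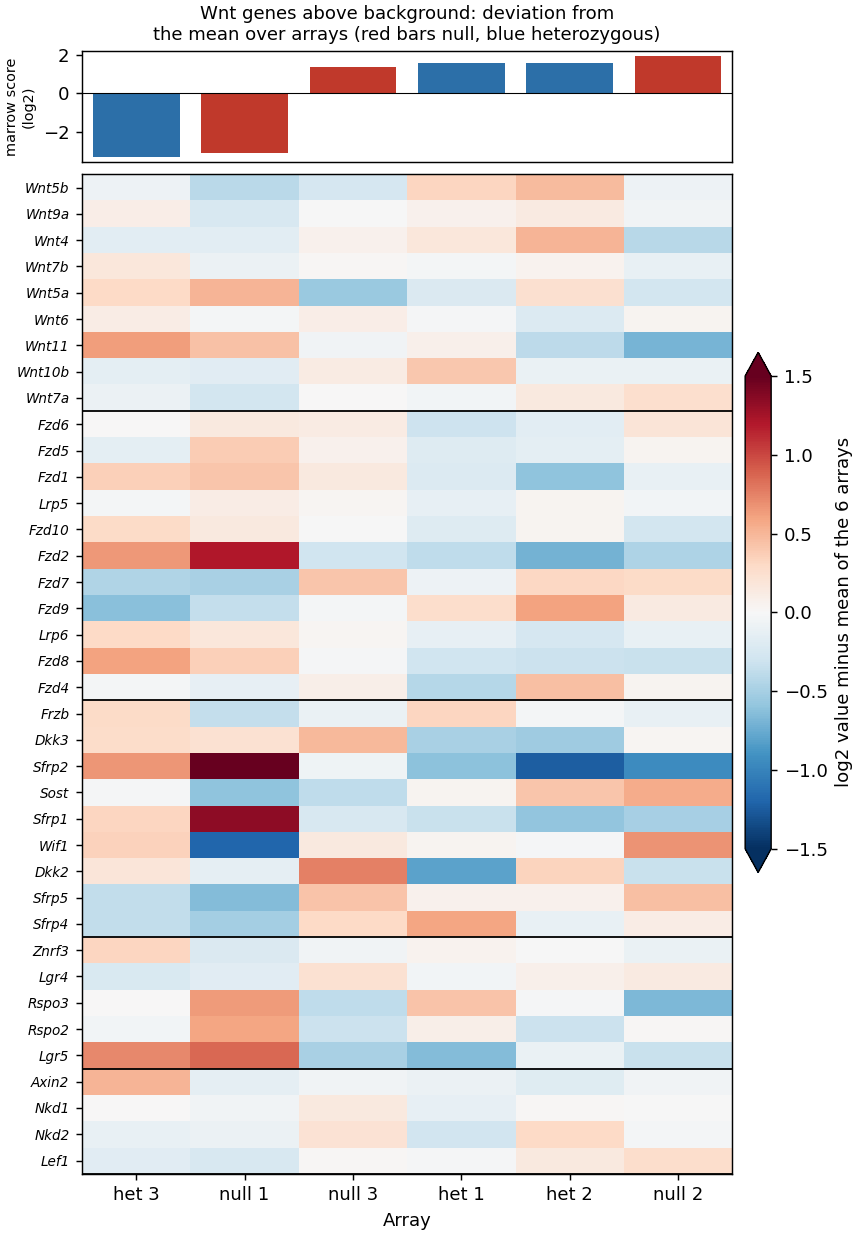
Deviation of each Wnt gene from its mean over the 6 arrays (log2 colour scale, capped at 1.5), for the 38 genes above background on every array, grouped as ligands, receptors, antagonists, R-spondin axis and nuclear or feedback genes from top to bottom. Arrays run from low to high marrow score (bars), and Sfrp2, Sfrp1, Fzd2 and Lgr5 are high on the 2 arrays at the left.

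**Figure D4:**
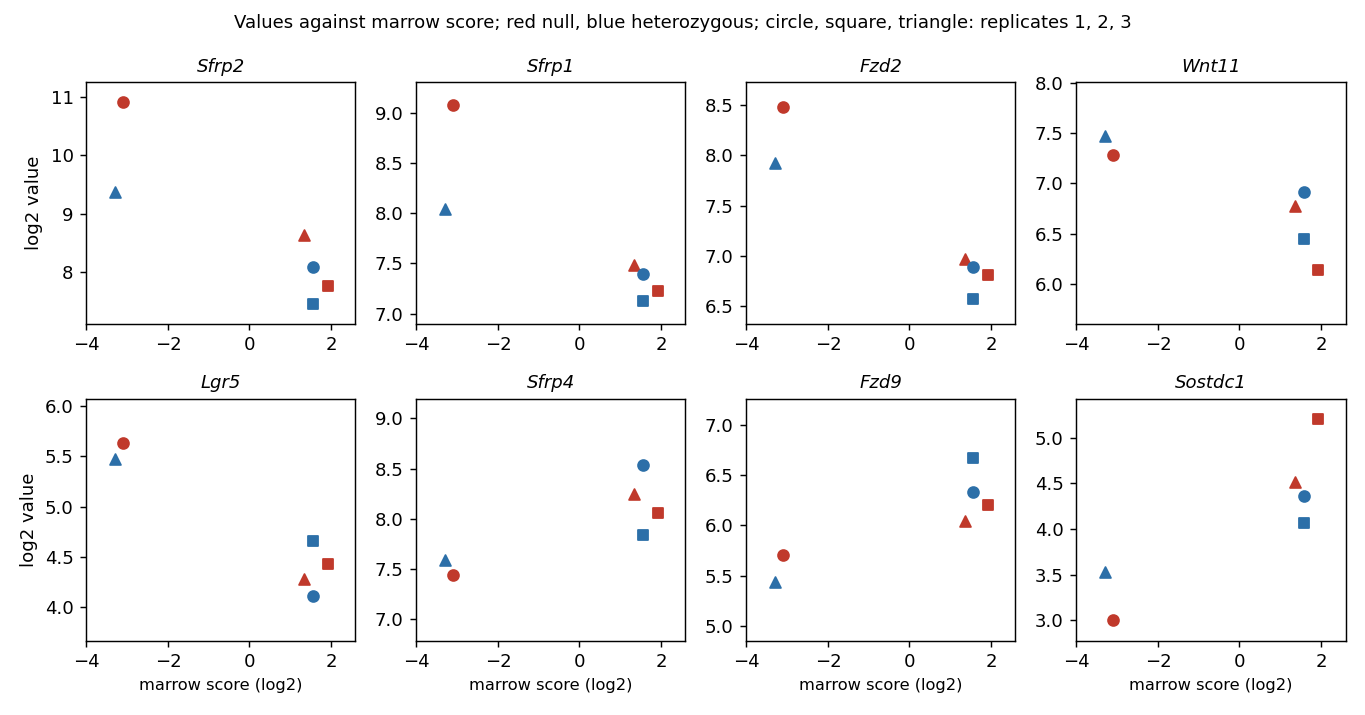
Log2 value (vertical axis) of 8 Wnt genes against marrow score (horizontal axis) on the 3 null (red) and 3 heterozygous (blue) arrays, with circles, squares and triangles for replicates 1, 2 and 3. The upper row and Lgr5 are highest, and Sfrp4, Fzd9 and Sostdc1 lowest, on the 2 arrays with scores of -3.10 and -3.30.

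The groups were then compared with these arrays removed or the marrow score in the fit. Without both arrays (2 against 2) 6 Wnt genes had an unadjusted p under 0.05, where 9.52% of all genes did. With the score as a covariate there were 9, where 10.2% of all genes passed, both directions together. Of these 9, 5 were higher in null callus, and the share of all genes by direction was not computed for this fit. No Wnt gene passed after adjustment in either fit (lowest adjusted p by limma among the genes named, 0.644 and 0.616). Without the arrays the difference was larger for Dkk3 (0.77), Fzd3 (0.72), Wnt5b (-0.56) and Fzd6 (0.39). It was smaller for the other genes whose groups had not overlapped: -0.26 for Frzb (unadjusted p = 0.17 by limma), 0.22 for Fzd5 (unadjusted p = 0.13 by limma), -0.098 for Znrf3, -0.16 for Lgr6 and -0.12 for Wnt9a. With the score in the fit, the 5 of those 9 with higher null values were Sfrp2 (0.85), Dkk3 (0.51), Fzd3 (0.51), Fzd5 (0.33) and Fzd6 (0.31). The lower ones were Dkk1 (-0.84), Wnt5b (-0.49), Frzb (-0.38) and Lgr6 (-0.30).

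A list of 76 further genes, from ligand secretion to beta-catenin targets, gave 74 measured ones. Of the 74, 10 had at least 1 array at or under background. By sign 45 (60.8%, against 49.7% of all genes) were higher and 29 lower in null callus. The median of the 74 was 0.07 against -0.0017 for all genes. At an unadjusted p under 0.05 there were 2 (2.70%, against 4.49% of all genes), both with lower null values, and 0 passed limma's adjusted threshold. Dvl1, a Dishevelled protein that relays the Frizzled signal, read 9.95, 10.11 and 10.06 against 10.38, 10.70 and 10.34. The groups were apart, with a difference of -0.43 (SE 0.13; unadjusted p = 0.015, adjusted p = 0.999 by limma). Kremen1, the receptor that helps Dkk1 take Lrp6 off the surface, read 7.94, 7.69 and 7.43 against 8.50, 7.93 and 8.83. Null replicate 1 just exceeded heterozygous replicate 2, and the difference was -0.74 (SE 0.25; unadjusted p = 0.024, adjusted p = 0.999 by limma). With each of the 6 arrays left out in turn, Dvl1 kept an unadjusted p under 0.05 by limma in 6 fits and Kremen1 in 2. Both genes were picked by their p in these same arrays, which the fits mostly share. The share of all genes that keep such a p was not computed, so these counts are a description. Btrc, part of the ubiquitin ligase for beta-catenin, differed by -0.23 (SE 0.11), though only 3 of its 5 probe sets had this sign. The mean of the Btrc probe sets gave -0.066. The Sost-binding receptor gene Lrp4 differed by -0.23 (SE 0.11) and the corepressor gene Tle1 by -0.28 (SE 0.14). The cilium and polarity gene Fuz differed by -0.23 (SE 0.11), close to background and with 1 null array under the guide. Of the 13 beta-catenin target genes in the list, 9 were higher (69.2%, against 49.7% of all genes) and 4 lower. By limma 0 had an unadjusted p under 0.05. Of these 13 genes, 4 had at least 1 array at or under background and 2 had all of them there, so some signs rest on background.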

How the data were processed

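Callus RNA from 3 null and 3 heterozygous samples was hybridised to Affymetrix GeneChip mouse arrays, per the labels' protocols. The deposited table gives a log2 value per probe set and array; the scale was inferred from the range (1.65 to 14.49), and the sources used here name no software, background correction or normalisation of the authors. Columns are already nearly alike in distribution, so a shift common to all genes could not show. Of 45101 probe sets, 64 controls were left out. Symbols came from the platform annotation (34945 probe sets with 1 symbol, 932 with several, 9160 with none).

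All 45037 probe sets were fitted with limma 3.58.1 in R 4.3.3 (group means, eBayes, two-sided, null minus heterozygous; residual df 4, prior df 2.50), with Benjamini-Hochberg adjustment and a threshold of 0.05. The code was tested on simulated data. The alternatives changed the scaling (quantile, or median-centred arrays), the fit (array weights, or a robust prior with a trend), the gene value (mean over probe sets, or low ones dropped), the thresholds, and the arrays used (each left out in turn, both marrow-poor ones left out, or the marrow score fitted). Values per array were given for genes set by function, for up to 4 per role with the lowest p, and for genes above the median level whose groups did not overlap. Up to 2 per role with the largest spread over arrays, and 6 other pathway genes with the lowest p, were added. Members, lists and rules were chosen with earlier results of these data known. Replicates were numbered in accession order. No protein sequences were used here.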

Additional observations from a re-analysis of the deposited data

How the results depend on the processing

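No paired analysis was possible because the labels give no replicate numbers and the numbers used here follow accession order. Under every alternative run, 0 of the 54 Wnt genes passed limma's adjusted threshold of 0.05, and 0 did at 0.10. The share of all genes at an unadjusted p under 0.05 (4.49%) moved with the setting, and is given in brackets beside the number of Wnt genes there (4). That number was 7 with array weights (12.1%), 1 with an intensity trend and robust prior (3.91%), 2 of the 32 genes above the median level (3.88%), 0 with the mean of all probe sets of a gene (4.23%) and 9 when the fit held the marrow score (10.2%); at a p under 0.01 it was 0. With an array left out it was 0 to 7, namely 0 without heterozygous replicate 1 (2.94%), 1 without heterozygous replicate 2 (3.01%), 2 without null replicate 3 (2.81%), 4 without null replicate 1 (6.28%), 6 without null replicate 2 (4.99%) and 7 with heterozygous replicate 3 left out (7.77%). The number without overlap (6) was 3 with the mean of probe sets and 22 without both marrow-poor arrays. With an array left out it was 8 to 13 (12 with null replicate 1 and 13 with heterozygous replicate 3 removed). Fewer arrays overlap less often by construction. The share of all genes without overlap was not computed under these settings, so these numbers have no background to be read against. The number with higher null values (28 of 54) was 17 of the 32 genes above the median level. Of the 74 other pathway genes, 10 had an unadjusted p under 0.05 with array weights, 1 with the mean of probe sets, 5 without both marrow-poor arrays (9.52% of all genes), 6 with the marrow score and 1 to 8 with an array left out, namely 8 without heterozygous replicate 3 and 1 without either null replicate 3 or heterozygous replicate 1, beside the same shares of all genes.

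Signs turned for Wif1 with array weights (0.040) and without both marrow-poor arrays (0.40), Axin2 without both (0.081), Lgr5 without both (-0.028) and with the mean of its probe sets (-0.062), and Lef1 with that mean (-0.0029). With an array left out the ranges that crossed zero were Lrp6 -0.053 to 0.22, Sfrp4 -0.27 to 0.20, Wif1 -0.64 to 0.29, Axin2 -0.29 to 0.052, Lef1 -0.090 to 0.16, Nkd2 -0.061 to 0.23, Lgr5 -0.39 to 0.40, Wnt10b -0.20 to 0.073, Sfrp2 -0.10 to 1.47, Wnt11 -0.48 to 0.087, Wnt5a -0.53 to 0.011, Fzd2 -0.23 to 0.69 and Sostdc1 -0.23 to 0.87. The cause was not tested. Array number limits precision, and low signals near background compress differences.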
